A study of Mus musculus with 8 samples.

Results

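The genes described here are 8 members of the epidermal growth factor (EGF) family: the receptor genes Egfr, Erbb2 and Erbb3 and the ligand genes Ereg, Hbegf, Areg, Tgfa and Nrg1. They were taken by symbol, through their Ensembl IDs in GENCODE M21, from a count table of 20781 genes. All 8 were in the table, and 7 of them passed the filter on low counts, Areg being the exception. RNA was sequenced from fibro-adipogenic progenitors (FAPs), mesenchymal cells of muscle that can form adipocytes or matrix-producing fibroblasts, from wild-type male C57BL/6 mice. The cells came from 3 uninjured hindlimb muscles (tibialis anterior, gastrocnemius and quadriceps). They were cultured for 48 h and then given vehicle (4 libraries) or melatonin (4 libraries) for 24 h in vitro. The melatonin concentration is not given in the sources used here, and the extraction protocol names another muscle, longissimus dorsi. The labels call the libraries biological replicates without naming an animal for each, so p-values measure the spread between these libraries.

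EGF family ligands are made as membrane-anchored precursors, and metalloproteases of the ADAM family cut them free to act on the same or neighbouring cells. EGFR binds EGF, TGF-alpha, amphiregulin, epiregulin, HB-EGF, betacellulin and epigen. ERBB3 and ERBB4 bind the neuregulins, while ERBB2 binds none of them and acts as a partner of the other receptors. Receptor pairs signal through the RAS, RAF, MEK and ERK kinases and through PI3 kinase, and ERK signalling induces genes that include ligands of the family. In mesenchymal progenitors, EGFR ligands act as mitogens, and sustained EGFR signalling is known to hold back adipocyte differentiation.

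The feature that defines the ligands is a short run with 6 cysteines, the EGF-like domain that binds the receptor. The coding bases of that run are shown for the ligand with the largest difference here (Ereg), its neighbour on the chromosome (Areg), and a ligand of EGFR and one of ERBB3 for comparison (Tgfa and Nrg1). Bases are written 5′ to 3′ in coding sense from the GENCODE M21 transcripts, with the cysteine codons TGT and TGC in capitals.
Ereg: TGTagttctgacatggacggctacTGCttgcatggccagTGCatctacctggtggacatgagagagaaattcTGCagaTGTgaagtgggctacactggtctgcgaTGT
Areg: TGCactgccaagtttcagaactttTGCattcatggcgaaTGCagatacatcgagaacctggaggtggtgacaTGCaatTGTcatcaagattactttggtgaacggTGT
Tgfa: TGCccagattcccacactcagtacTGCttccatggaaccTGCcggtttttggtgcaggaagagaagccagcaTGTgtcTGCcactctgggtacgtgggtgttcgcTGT
Nrg1: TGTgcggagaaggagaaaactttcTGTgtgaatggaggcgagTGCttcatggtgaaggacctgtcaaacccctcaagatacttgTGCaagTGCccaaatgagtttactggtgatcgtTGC

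In Ereg, Areg and Tgfa the 6 cysteine codons were separated by 7, 4, 10, 1 and 8 other codons, over 36 codons in all. The Hbegf, Btc and Epgn transcripts had the same spacing. Nrg1 differed, with 7, 5, 13, 1 and 8 codons between its cysteine codons and a run of 40 codons. On GRCm38 these bases lie in exons 3 and 4 of the transcript for Ereg (chromosome 5, 91088496 to 91089111, plus strand), Areg (chromosome 5, 91143614 to 91144364, plus strand) and Tgfa (chromosome 6, 86263200 to 86269960, plus strand). Those of Nrg1 lie in exons 2 and 3 of the transcript used (chromosome 8, 31837698 to 31849398, minus strand), and 10 annotated coding transcripts of Nrg1 carry them. The counts are per gene, so the share of each Nrg1 isoform was not measured.

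Total counts ran from 35584931 to 52401153 per library. Below, CPM is the library-scaled count in its usual unit, on library sizes adjusted by TMM factors, a log2 fold change gives melatonin relative to vehicle with its standard error, and a gene is called at an edgeR adjusted p under 0.05, adjusted over all 16565 tested genes. The FAP markers Pdgfra (570 ± 52.2 and 465 ± 74.0 CPM, SD, n = 4, vehicle first) and Ly6a (336 ± 32.8 and 224 ± 21.8 CPM) were present in both groups. Macrophage markers were present as well, at a summed 464 to 708 CPM with vehicle and 312 to 585 CPM with melatonin over 6 genes, while the epithelial marker Epcam was at 0 to 0.160 CPM. Of the 6 FAP markers, 4 fell, and their sum, mostly Col1a1, went from 14522 to 17187 CPM with vehicle to 7223 to 8194 CPM with melatonin. All 3 tested adipocyte markers rose (summed 100 to 106 and 632 to 798 CPM). Of 4 endothelial markers 1 rose, Tek (17.1 ± 1.51 to 35.3 ± 3.61 CPM), while Pecam1, Cdh5 and Kdr were not called. The sum of the 4 (26.6 to 33.2 and 45.1 to 53.2 CPM) differed mostly through Tek. Of 3 pericyte and smooth muscle markers 1 fell (summed 25.9 to 33.6 and 22.3 to 28.3 CPM). Melatonin replicate 4 stood apart from the other libraries of its group on the second principal component (−54.4, against 18.5 to 25.5). Mitochondrial genes took 1.047% to 1.301% of counts with vehicle and 2.088% to 2.442% with melatonin, and the part of this shift in the results was not tested.

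Of the 7 tested members, 3 fell with melatonin, and all 3 were ligand genes: Ereg, Hbegf and Nrg1. None was called higher by edgeR or limma-voom, while DESeq2 called Erbb3, the 1 member higher at an unadjusted edgeR p under 0.05. Across all tested genes 36.5% were called, 18.5% lower and 18.1% higher, so the members' 3 of 7 is a share near that background. The groups did not overlap in CPM for the same 3 members, against 37.7% of all tested genes. The median log2 fold change of the 7 was −0.18, beside 0.01 over all tested genes. With library totals as the scaling the median of all tested genes was 0.17, and 69.5% of calls were higher in place of 49.4%. Members then gave 2 calls lower and 1 higher, with a median of −0.02.

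**Figure D1:**
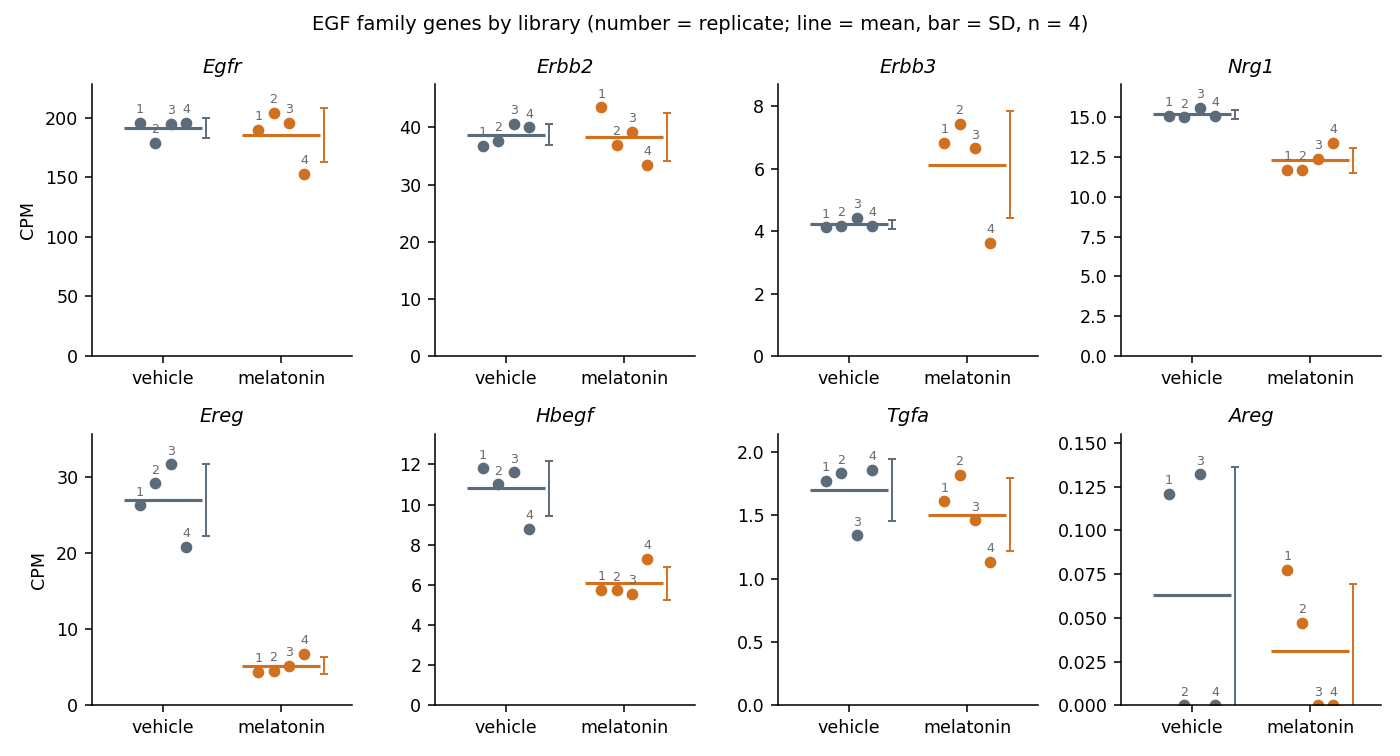
CPM of the 8 EGF family genes in each library (y axis from 0), with vehicle in grey and melatonin in orange; numbers are replicates, lines are means and bars are SD over 4 libraries. The 4 melatonin libraries lie below all vehicle libraries for Ereg, Hbegf and Nrg1, and melatonin replicate 4 is the lowest melatonin library for Egfr, Erbb2, Erbb3 and Tgfa.

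Ereg, which encodes epiregulin, a ligand of EGFR and ERBB4, showed the largest difference of the 7 tested members. It was at 26.3, 29.2, 31.7 and 20.8 CPM in vehicle replicates 1 to 4 and at 4.36, 4.49, 5.15 and 6.79 CPM in melatonin replicates 1 to 4. The groups were far apart: every melatonin library was well below the lowest vehicle library. The mean went from 27.0 ± 4.67 to 5.20 ± 1.12 CPM (SD, n = 4), 5.20-fold lower, a log2 fold change of −2.38 ± 0.17 (edgeR adjusted p = 7.6e-06). By p-value Ereg ranked 239 of 16565 tested genes. Its gene (ENSMUSG00000029377) lies at 91074622 to 91093646 of chromosome 5 (GRCm38, plus strand), and 141 bases of its exons overlap the antisense gene Gm19610, from which unstranded reads could not be told.

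Hbegf encodes heparin-binding EGF-like growth factor, which binds EGFR and ERBB4 and, on mesenchymal cells, heparan sulfate. It was at 11.8, 11.0, 11.6 and 8.80 CPM with vehicle and at 5.75, 5.72, 5.56 and 7.30 CPM with melatonin. Vehicle replicate 4 and melatonin replicate 4 lay closest to each other, and the groups did not overlap. The mean fell from 10.8 ± 1.37 to 6.08 ± 0.814 CPM (n = 4), 1.78-fold lower, with a log2 fold change of −0.83 ± 0.13 (edgeR adjusted p = 8.9e-04). The same 2 libraries were the nearest between groups for Ereg. Hbegf (ENSMUSG00000024486) lies on chromosome 18, 36504927 to 36515805, on the minus strand.

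Macrophages are known as another source of epiregulin and HB-EGF. Of the 6 macrophage markers, 1 was lower with melatonin (Csf1r, 29.0 ± 4.88 to 17.2 ± 5.35 CPM, adjusted p = 0.033) and the other 5 were not called. The Csf1r call was lost with library totals as the scaling and without vehicle replicate 2, vehicle replicate 3 or melatonin replicate 2 (adjusted p = 0.067, 0.084, 0.079 and 0.068), while DESeq2 called 2 of the 6 lower and 1 higher. At an unadjusted edgeR p under 0.05, 3 of the 6 were lower and 1 was higher. Itgam had the largest difference, from 9.29 ± 4.93 to 3.64 ± 1.66 CPM with overlap (log2 fold change −1.34, edgeR adjusted p = 0.083). Ptprc, the leukocyte gene of CD45, was at 3.20 ± 0.491 and 1.90 ± 0.851 CPM with no overlap (adjusted p = 0.099). Cd68 went the other way, from 23.1 ± 3.64 to 34.0 ± 9.79 CPM with overlap (log2 fold change 0.56, edgeR adjusted p = 0.071). The summed level, most of it Lyz2 (444 ± 84.6 and 398 ± 97.7 CPM), overlapped between the groups. Melatonin replicate 4 had the lowest summed macrophage level, 312 CPM, and the highest Ereg and Hbegf levels of its group. In bulk RNA, fewer cells of a type and less RNA per cell cannot be told apart, and the part of macrophages in these differences was not tested.

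Tgfa and Areg encode the other EGFR ligands among the members. Tgfa was low, at 1.77, 1.83, 1.34 and 1.86 CPM with vehicle and 1.61, 1.82, 1.46 and 1.13 CPM with melatonin. The groups overlapped, and the log2 fold change was −0.18 ± 0.20 with a 95% interval of −0.62 to 0.26 (edgeR adjusted p = 0.53). Areg, the gene of amphiregulin, had 6, 0, 6 and 0 counts in the vehicle libraries and 4, 2, 0 and 0 in the melatonin libraries. These 12 and 6 counts gave a ratio of 0.510 (melatonin over vehicle) with an exact 95% counting interval of 0.157 to 1.47, so no difference was detectable at this depth. A library without a count allows up to 3 counts, which is 0.0560 to 0.0805 CPM at these depths. All of the Areg counts were even numbers. Over all genes 63.7% of counts from 1 to 10 were even, against 49.9% of counts from 50 to 300, and intervals and limits that treat each count as independent may then be too narrow.

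Nrg1 encodes neuregulin 1, the ligand of ERBB3 and ERBB4 that nerves use to support Schwann cells. It was at 15.1, 15.0, 15.6 and 15.1 CPM with vehicle and at 11.7, 11.7, 12.4 and 13.4 CPM with melatonin. The vehicle libraries were nearly equal and all lay above the melatonin libraries. The mean fell from 15.2 ± 0.250 to 12.3 ± 0.822 CPM, 1.24-fold lower, with a log2 fold change of −0.31 ± 0.08 (edgeR adjusted p = 0.014). This call was lost with library totals as the scaling (−0.15, adjusted p = 0.17) and without melatonin replicate 1 (−0.27, adjusted p = 0.053). Nrg1 (ENSMUSG00000062991) spans chromosome 8, 31814551 to 32884029, on the minus strand, and 482 bases of its exons overlap Gm26578, a noncoding RNA gene on the other strand.

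**Figure D2:**
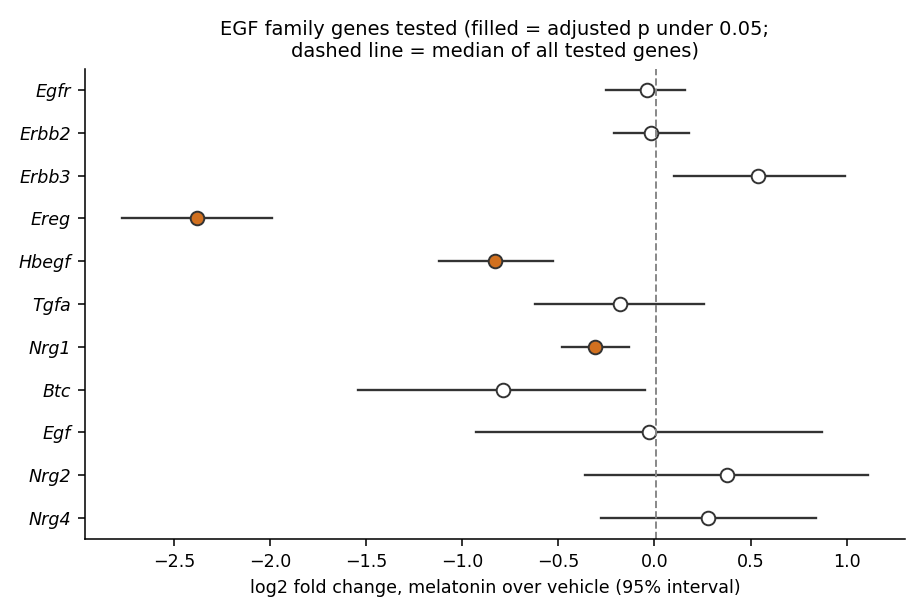
Log2 fold change, melatonin over vehicle, of the 11 EGF family genes that were tested (x axis), with 95% intervals from the edgeR fit; filled points are called. Ereg, Hbegf and Nrg1 lie left of 0 with filled points, Egfr and Erbb2 are within intervals of −0.25 to 0.16 and −0.21 to 0.18, and Erbb3 is at 0.54.

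None of the 3 receptor genes was called by edgeR, and 1 had an unadjusted p under 0.05. Egfr was at 196, 179, 195 and 196 CPM with vehicle and at 190, 204, 196 and 153 CPM with melatonin, a log2 fold change of −0.04 ± 0.09 with a 95% interval of −0.25 to 0.16 (edgeR adjusted p = 0.74). Erbb2 was at 36.8, 37.6, 40.6 and 40.0 CPM and then 43.5, 36.9, 39.2 and 33.5 CPM, a log2 fold change of −0.02 ± 0.09 with an interval of −0.21 to 0.18 (edgeR adjusted p = 0.91). For both the melatonin libraries spread around the vehicle libraries, and as fold changes the intervals ran no lower than 0.843 for either gene and no higher than 1.13. The sign of both small values turned with library totals as the scaling (0.11 and 0.14) and without melatonin replicate 4 (0.05 for each). Egfr (ENSMUSG00000020122) spans chromosome 11, 16752203 to 16918158, and Erbb2 (ENSMUSG00000062312) the same chromosome, 98412470 to 98437716, both on the plus strand.

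Erbb3 encodes a neuregulin receptor with little kinase activity of its own, which signals by pairing with ERBB2 or EGFR. It was at 4.12, 4.17, 4.43 and 4.17 CPM with vehicle and at 6.83, 7.44, 6.66 and 3.62 CPM with melatonin. Melatonin replicates 1 to 3 were above every vehicle library, and replicate 4 was below them all. The log2 fold change was 0.54 ± 0.20 with a 95% interval of 0.10 to 0.99, and it did not pass (edgeR adjusted p = 0.057). Without melatonin replicate 4 it was 0.73 and passed (edgeR adjusted p = 3.6e-04), and it also passed with DESeq2 (adjusted p = 0.034), with upper-quartile factors (0.048) and with library totals (0.017). Erbb3 (ENSMUSG00000018166) spans chromosome 10, 128567523 to 128589652, on the minus strand.

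ERBB3 is known in Schwann cells and in muscle, so markers of both were set beside it. Sox10, the transcription factor gene of Schwann cells, rose from 5.85 ± 0.600 to 9.90 ± 1.39 CPM (edgeR adjusted p = 0.0014), and melatonin replicate 4 (7.86 CPM) was its lowest melatonin library. Ngfr, also found in mesenchymal cells, rose from 38.0 ± 2.96 to 60.1 ± 12.4 CPM (adjusted p = 0.0056) and was again lowest in melatonin replicate 4 (41.9 CPM). Of the 5 Schwann cell markers, 2 were called higher. Their summed level was 51.0 to 58.7 CPM with vehicle and 58.9 to 88.9 CPM with melatonin. The myoblast factor gene Myog was at 10.4, 15.2, 10.5 and 4.69 CPM with melatonin, with replicate 4 lowest, and at 5.15 to 7.85 CPM with vehicle. Myod1, also of myoblasts, had a log2 fold change of 0.82 (adjusted p = 0.15), while the muscle cadherin gene Cdh15 was at 0.903 to 2.32 CPM with vehicle and 0.697 to 1.21 CPM with melatonin, a value of −0.51 (adjusted p = 0.25). Of the 5 satellite cell and myoblast markers 3 were tested, and their sums overlapped (8.62 to 12.6 and 6.79 to 23.3 CPM). None of the 3 was called by edgeR, DESeq2 or limma-voom. At an unadjusted p under 0.05, edgeR and limma-voom gave 0 and DESeq2 gave 2. Without melatonin replicate 4, edgeR called 2 of the 3 higher, Myog and Myod1. Melatonin replicate 4 was also the lowest library of its group for genes of other kinds, such as Egfr (153 CPM) and Pdgfra (354 CPM). It was the highest for Ereg, Hbegf and Nrg1. A low value in that library is therefore not particular to these markers. The part of Schwann cells and myoblasts in the Erbb3 values was not tested.

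**Figure D3:**
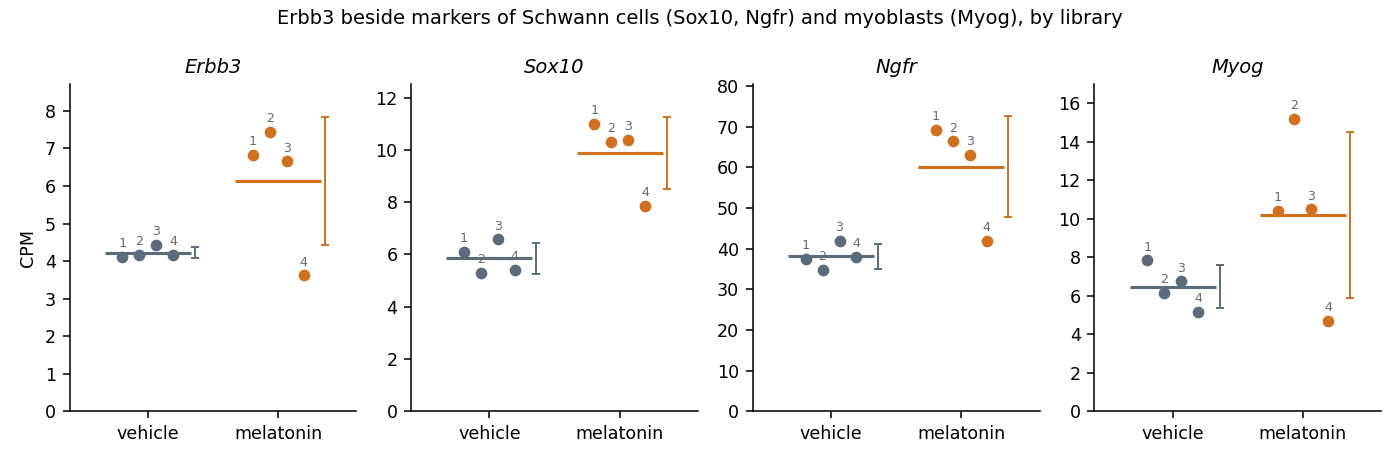
CPM of Erbb3, of the Schwann cell markers Sox10 and Ngfr and of the myoblast marker Myog in each library (y axes from 0), with vehicle in grey and melatonin in orange; lines are means and bars SD over 4 libraries. In all 4 panels melatonin replicate 4 is the lowest melatonin library. It is at 3.62 CPM for Erbb3, below every vehicle library, and at 7.86 CPM for Sox10, above every vehicle library.

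Levels of different genes were compared per length, as CPM divided by the kilobases of annotated exon. On this scale the vehicle order was Egfr (16.9 ± 0.765), Erbb2 (7.43 ± 0.354), Ereg (6.54 ± 1.13), Hbegf (2.23 ± 0.284), Nrg1 (1.47 ± 0.0242), Erbb3 (0.702 ± 0.0230), Tgfa (0.262 ± 0.0378) and Areg (0.0519 ± 0.0600). Only Erbb2 and Ereg overlapped among neighbours in that order. With melatonin the order of the means was kept, but Ereg (1.26 ± 0.270), Hbegf (1.26 ± 0.168), Nrg1 (1.19 ± 0.0794) and Erbb3 (1.02 ± 0.285) lay so close that each overlapped its neighbour. Egfr (16.4, range 13.5 to 18.0), Erbb2 (7.35 ± 0.800), Tgfa (0.231 ± 0.0449) and Areg (0.0257 ± 0.0313) were still apart from theirs. Egfr was thus 2.28 times Erbb2 and 24.1 times Erbb3 per length in vehicle cells. Taking the longest transcript as the length moved Hbegf to 3.74 and 2.10 and Nrg1 to 2.81 and 2.27 (vehicle, then melatonin), which places both above Ereg with melatonin.

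The transcripts of all 7 ligands of EGFR (the 4 members and Btc, Egf and Epgn) summed to 9.57 ± 1.55 per length with vehicle and to 3.07 ± 0.373 with melatonin, 3.11-fold lower. Every vehicle library (7.47 to 11.2) was above every melatonin library (2.84 to 3.63). Ereg made up 81.2% of that difference and Hbegf 15.0%. Ereg took 68.2% ± 2.58 of the summed level with vehicle and 40.6% ± 3.85 with melatonin, while Hbegf took 23.5% ± 1.54 and 40.9% ± 1.31. With the longest transcript as the length, the sum was 2.75-fold lower, Ereg made up 73.4% of the difference, and the melatonin shares were 30.3% for Ereg and 51.0% for Hbegf. No test was made on these sums.

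**Figure D4:**
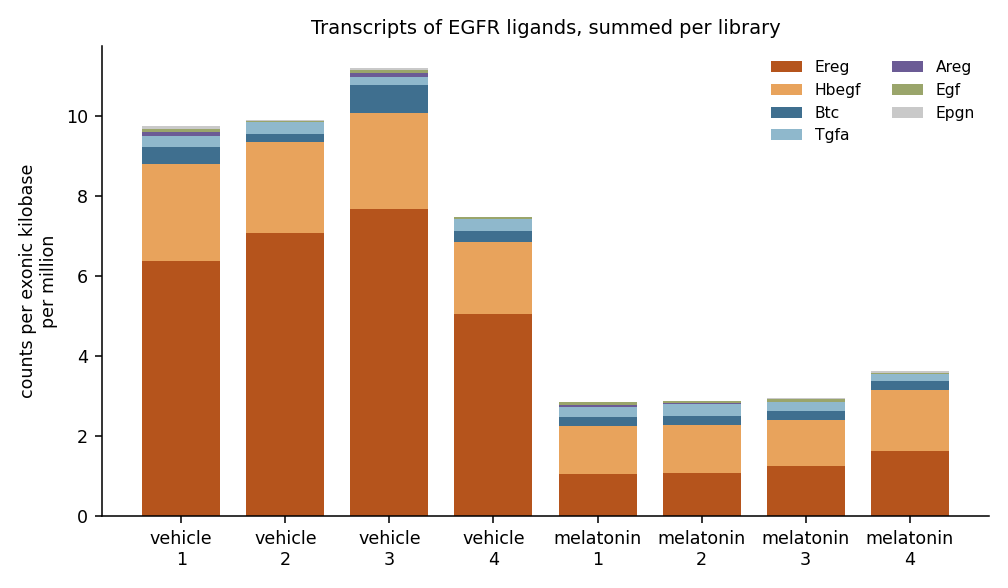
Stacked level of the 7 EGFR ligand transcripts in each library, in CPM per exonic kilobase (y axis from 0). The bars fall from 7.47 to 11.2 with vehicle to 2.84 to 3.63 with melatonin, and the Ereg segment shrinks more than the others.

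Ratios of counts within a library do not depend on how libraries are scaled, and 9 pairs were compared by an exact two-sided permutation test, all among the receptors or among the 4 EGFR ligand members. The log2 ratio of Hbegf to Ereg was −1.31 ± 0.14 with vehicle and 0.24 ± 0.16 with melatonin, a difference of 1.55, with no overlap. The ratio of Ereg to Tgfa moved by −2.19 (3.97 ± 0.45 to 1.78 ± 0.57), and that of Erbb3 to Egfr by 0.54 (−5.50 ± 0.07 to −4.96 ± 0.29), both also without overlap. These 3 pairs reached p = 0.0286, the smallest that this exact test of 4 against 4 libraries can give, and an adjusted p of 0.0857 over the 9 pairs, so none passed. After this adjustment a pair can pass only if most of the 9 pairs reach that smallest p. A pair alone could therefore not pass, however large its difference. Erbb2 to Egfr differed by 0.03 (exact p = 0.686). The remaining pairs had exact p-values of 0.0857 to 0.800.

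Other genes of the family were low. Of 7 listed, 4 were tested, and none was called by edgeR, DESeq2 or limma-voom, with 1 lower at an unadjusted edgeR p under 0.05. That gene was Btc, which encodes betacellulin, at 1.89, 0.972, 3.09 and 1.22 CPM with vehicle and at 1.01, 1.11, 1.03 and 0.992 CPM with melatonin (log2 fold change −0.79 ± 0.33, edgeR adjusted p = 0.091). Its vehicle libraries were scattered, and without vehicle replicate 2 it passed (adjusted p = 0.032), while without vehicle replicate 3 the value was −0.40 (adjusted p = 0.28). Egf was at 0.571 ± 0.214 and 0.553 ± 0.249 CPM, and the neuregulin genes Nrg2 (0.469 ± 0.201 and 0.610 ± 0.0217 CPM) and Nrg4 (0.436 ± 0.0195 and 0.534 ± 0.107 CPM) were not called (adjusted p = 0.41 and 0.42). Epgn, the epigen gene, had 14 vehicle and 7 melatonin counts and was not tested, and Nrg3 and Erbb4 were not analysed here.

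Epgn, Ereg, Areg and Btc lie near one another on chromosome 5. On GRCm38 the order of their genes is Epgn (91027464 to 91035215), Ereg, Areg (91139599 to 91148432) and Btc (91357261 to 91402994), the last on the minus strand. Per length, the vehicle level of Ereg was 6.54, against 0.397 for Btc, 0.0519 for Areg and 0.0408 for Epgn, so of these 4 genes Ereg was by far the highest.

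Genes that free or traffic the ligands were called in both directions. Of 13 tested, 2 rose and 3 fell, and the median difference was −0.04 (log2). That is 38.5% called, near the 36.5% of all tested genes. With library totals as the scaling 5 rose and 2 fell. The main shedding protease genes Adam17 (160 ± 8.54 and 151 ± 12.6 CPM, adjusted p = 0.40) and Adam10 (83.1 ± 4.59 and 77.7 ± 4.99 CPM, adjusted p = 0.31) were not called, and the sign of both turned with library totals as the scaling. The iRhom genes, whose products carry ADAM17 to the cell surface, fell. Rhbdf2 was at 54.6, 55.1, 62.4 and 53.2 CPM with vehicle and at 32.2, 32.8, 34.0 and 22.7 CPM with melatonin, with no overlap (−0.89 ± 0.12, edgeR adjusted p = 3.8e-04). Rhbdf1 went from 94.1 ± 3.10 to 78.0 ± 4.63 CPM (−0.27 ± 0.06, adjusted p = 0.0073), a call lost with library totals (−0.11, adjusted p = 0.19). Adam12, a protease gene of mesenchymal and adipogenic cells that can cut HB-EGF, rose from 105 ± 8.17 to 216 ± 34.0 CPM (1.04 ± 0.12, adjusted p = 9.5e-05). The other calls, named after their values were seen, were Adam9 (−0.59, adjusted p = 0.017) and the ADAM17 inhibitor gene Timp3 (0.22, adjusted p = 0.042). The Timp3 call was lost with 10 counts required in every library (adjusted p = 0.052) and on leaving out any 1 library other than melatonin replicate 3 (0.050 to 0.12), and that of Adam9 without melatonin replicate 3 (0.051).

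Genes that dampen ERBB signalling were mostly lower. Of 13 tested, 9 fell and 1 rose, with a median of −0.50. This is 76.9% called, beside 36.5% of all tested genes (18.5% lower), and with library totals as the scaling 8 fell and 2 rose. Earlier results of these data were known when the list was chosen, so these shares are a description. Errfi1, which encodes the EGFR inhibitor MIG6, was at 99.1, 106, 123 and 91.6 CPM with vehicle and at 62.9, 65.5, 63.5 and 53.1 CPM with melatonin, with no overlap (−0.78 ± 0.10, edgeR adjusted p = 2.7e-04). The 3 with the smallest p were Ptprk, a receptor phosphatase gene (33.7 ± 2.57 to 15.8 ± 1.59 CPM, −1.09 ± 0.09), Sh3kbp1, whose product works with CBL in EGFR uptake (75.8 ± 2.19 to 45.1 ± 3.83 CPM, −0.75 ± 0.07), and the phosphatase gene Ptpn1 (140 ± 11.3 to 94.2 ± 2.19 CPM, −0.57 ± 0.07). Cblb, a ubiquitin ligase gene, was the one that rose (0.42 ± 0.10, adjusted p = 0.0099).

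Among genes of the relay from the receptors to ERK and PI3 kinase, 22 were tested, 4 rose and 4 fell, and the median was −0.04. The share called, 36.4%, was near the 36.5% of all tested genes. With library totals as the scaling 6 rose and 3 fell. Map2k1, the MEK1 gene, fell from 228 ± 16.4 to 135 ± 7.19 CPM (−0.75 ± 0.07, edgeR adjusted p = 3.3e-05), while Map2k2, the gene of MEK2, named after its values were seen, rose from 173 ± 4.28 to 217 ± 23.2 CPM (0.33 ± 0.08, adjusted p = 0.0089). The receptor substrate gene Eps8 (−0.63 ± 0.10) and Stat3 (352 ± 25.3 to 263 ± 13.3 CPM) also fell.

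Transcripts that ERK signalling is known to raise were lower in most cases. Of 19 tested, 14 fell and 4 rose, and the median was −0.47. This is 94.7% called, beside 36.5% of all tested genes (18.5% lower and 18.1% higher), and with library totals as the scaling 10 fell and 4 rose. The list was chosen with earlier results of these data known, so these shares are a description. Fosl1, an AP-1 factor gene, was at 72.1, 69.3, 68.9 and 57.8 CPM with vehicle and at 16.3, 19.5, 16.2 and 17.4 CPM with melatonin, a clear gap (−1.95 ± 0.09, edgeR adjusted p = 7.7e-07). Spry1, an inhibitor gene of receptor tyrosine kinase signalling, fell from 78.9 ± 2.93 to 27.3 ± 1.05 CPM (−1.53 ± 0.06, adjusted p = 3.6e-07) and the ETS factor gene Etv4 from 6.08 ± 0.980 to 1.87 ± 0.164 CPM (−1.70 ± 0.15, adjusted p = 2.4e-05). The 4 that rose, named after their values were seen, were Dusp4 (1.21), Egr1 (0.94), Dusp5 (0.73) and Fos (0.38), and Fos was the one of them whose groups overlapped. The Fos call (adjusted p = 0.036) was lost on leaving out any 1 of 6 libraries, all but vehicle replicate 3 and melatonin replicate 3 (0.057 to 0.096). Other receptors feed the same kinases, and the link of these transcripts to the EGF family was not tested.

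**Figure D5:**
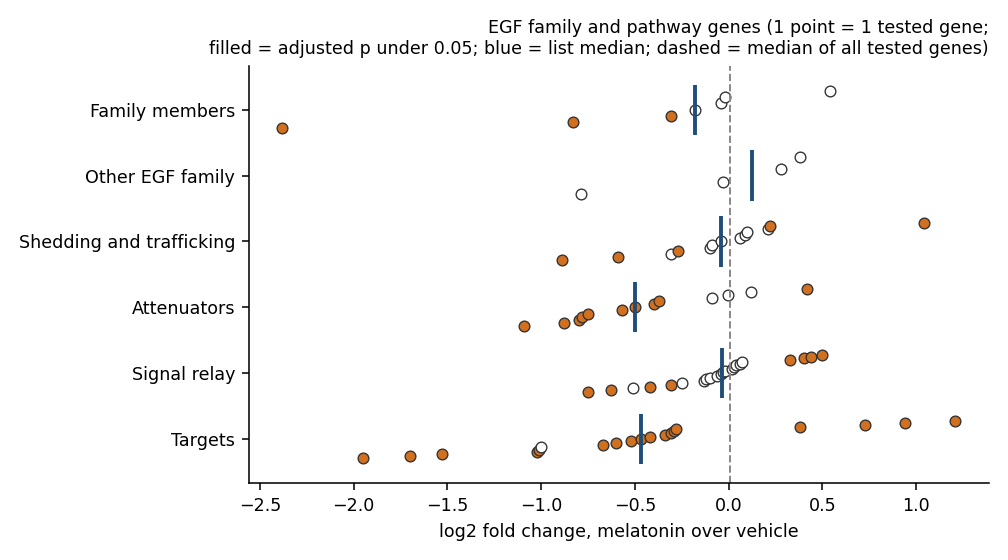
Log2 fold change, melatonin over vehicle (x axis), of each tested gene among the EGF family members and the 5 pathway lists; filled points are called, blue bars are list medians and the dashed line is the median of all tested genes. The attenuator and target lists have medians of −0.50 and −0.47, and those of the shedding and relay lists lie at −0.04. All lists were chosen with earlier results of these data known.

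Over the 8 libraries, the genes whose log2 CPM was most like that of Ereg by Pearson's r were Soat1 (0.9958), Arg2 (0.9957) and Nus1 (0.9954). For Hbegf they were Arl14ep (0.9925), Zfp827 (0.9917) and Nqo2 (0.9854). The log2 fold changes of these genes ran from −0.43 for Soat1 to −2.71 for Arg2. These values are a description over libraries of 2 groups, in which any gene with a difference between the groups scores high.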

How the data were processed

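The deposited table holds counts of reads per gene, whole numbers that the authors made from 8 libraries. The submitters' processing notes name Trimmomatic 0.36, HISAT2 2.0, StringTie 1.3.3b, bedtools 2.26.0, DESeq2 1.12.4 and the mm10 build. For the counting program, its annotation and its use of strand and read pairs, the entry is: not given in the sources used here. Columns headed con were read as vehicle. GENCODE M21 (GRCm38) matched 20720 of 20781 IDs.

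All 16565 genes that passed edgeR's filterByExpr were fitted together with edgeR 4.0.16 (TMM, quasi-likelihood, group as the only term, Benjamini-Hochberg adjustment), after a check on simulated counts. DESeq2 1.42.0, limma-voom (limma 3.58.1), other scalings and filters, a replicate block and each library left out were alternatives. Ratios had 0.5 added to each count and were compared by an exact permutation test. Exonic length is the union of annotated exons.

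The members and lists were chosen with earlier results of these data known. The lists were other EGF family genes, shedding and trafficking, attenuators, signal relay and targets, plus markers of FAPs, macrophages, satellite cells, Schwann cells, endothelium, epithelium, pericytes and adipocytes. Named were all family genes, Adam10, Adam17, Rhbdf1, Rhbdf2 and Errfi1, the 3 smallest p per pathway list, defining markers, and the 3 genes most correlated with each of the 2 members of smallest p.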

Additional observations from a re-analysis of the deposited data

Results flagged for a closer look

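In 56 groups of 4 libraries (28 family and pathway genes), 5 held a library whose gap to the others was large for the group's range, where chance flags about 1 in 20 groups. Egfr was at 179 CPM in vehicle replicate 2, below the 195 to 196 CPM of the other vehicle libraries. Erbb3 was at 4.43 CPM in vehicle replicate 3, above 4.12 to 4.17 CPM in the others. Hbegf was at 7.30 CPM in melatonin replicate 4, above 5.56 to 5.75 CPM in the other melatonin libraries, and still below every vehicle library. Rhbdf2 was at 22.7 CPM in the same library, below 32.2 to 34.0 CPM in the others. Rhbdf1 was at 85.0 CPM in melatonin replicate 3, above 75.5 to 75.9 CPM in the others.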

How the results depend on the processing

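Ereg and Hbegf were lower and called in all 16 alternatives (log2 fold changes −2.52 to −2.22 and −0.92 to −0.67). Of 112 values for the 7 tested members, 98 kept direction and side of the threshold, 3 lost the call (all Nrg1), 4 gained it (all Erbb3) and 7 changed sign (Egfr and Erbb2, never called). Members called higher went from 0 to 1 with DESeq2, with library totals and with upper-quartile factors, and ranged from 0 to 1 over the libraries left out. Pathway genes called higher went from 11 to 17 with library totals. Library totals also turned Egfr to 0.11, Erbb2 to 0.14, Egf to 0.13, Adam10 to 0.06 and Adam17 to 0.07. That scaling leaves out the TMM factors, which were 0.916 to 0.9743 with vehicle and 1.048 to 1.077 with melatonin. The median of all tested genes then moved as well, from 0.01 to 0.17. Why the factors differ between the groups was not tested. Leaving out 1 library gave −0.09 to 0.05 for Egfr, −0.07 to 0.05 for Erbb2 and −0.25 to 0.19 for Egf. It gave log2 ratio differences of −0.02 to 0.09 for Erbb2 to Egfr, −0.98 to 0.20 for Hbegf to Areg and −0.94 to 0.49 for Areg to Tgfa. With 4 libraries against 3 the exact test cannot go below p = 0.0571, so these ratio tests say nothing about stability.

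The labels give both groups replicate numbers 1 to 4, but same-numbered libraries did not deviate together (r of −0.0461 to 0.0354, and 0 of 4 over 0.1). With the replicate block, 4942 genes were called in place of 6054, 2 members were lower, and Nrg1 was at −0.31 (edgeR adjusted p = 0.052). Across the 16 alternatives the number of called genes ranged from 4942 to 7336. With 3 counts equal to 0.0560 to 0.0805 CPM, depth limits Areg and Epgn.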
